A study of Canis lupus familiaris with 58 samples.

Results

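The 10 genes described here (HSP90B1, PDIA4, DNAJB11, FKBP11, SEL1L, HERPUD1, DERL3, SEC11C, SSR4 and CREB3L2) code for proteins of the endoplasmic reticulum (ER). Most of these proteins help to import, fold or process secreted proteins or to destroy misfolded ones, and CREB3L2 is a transcription factor. The genes were taken by symbol from 15115 genes measured on Affymetrix canine arrays, with 1 array for each of 58 pet dogs with B-cell lymphoma sampled before treatment. Of 17 probe sets for these genes, the 10 with the highest mean gave the levels, on a log2 scale, and the other 7 served as a check. Fine needle aspirates came from 19 dogs with no known diagnosis. Lymph nodes came from 39 dogs, 7 with marginal zone lymphoma (MZL, which arises from B cells at the edge of the follicle) and 32 with diffuse large B-cell lymphoma (DLBCL, a fast-growing lymphoma made of large B cells). Mutation of the variable gene of the antibody heavy chain (IGHV) was labelled static in 26 dogs (7 aspirates, 1 MZL node and 18 DLBCL nodes), ongoing in 27 dogs (11 aspirates, 4 MZL nodes and 12 DLBCL nodes) and ND, which the labels do not explain, in 5 dogs. Progression-free survival (PFS) was known for 55 dogs with 47 events, and overall survival (OS) for 56 dogs with 41 events.

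Proteins bound for the cell surface or for secretion enter the ER through a channel, lose their signal peptide, fold with the help of chaperones and form disulfide bonds. Those that fail to fold are drawn back to the cytosol and destroyed, a route called ER-associated degradation, and an overload switches on the unfolded protein response, through factors such as XBP1. Antibody-secreting plasma cells depend heavily on this machinery, and B cells build it up as they mature towards secretion. The roles given below are known mainly from human and mouse cells.

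Arrays were alike in scale, with medians from 7.08 to 7.20, and their number limits the precision. Levels of the B-cell genes MS4A1 and CD79B ranged over 6.96 to 13.79 and 7.98 to 12.53 (log2) across the 58 arrays, with medians of 12.73 and 10.82. The other B-cell markers ranged less, down to 6.89 to 7.60 for PAX5. Among T-cell genes CD3D ranged over 8.71 to 13.46 (median 13.05), CD3G over 6.69 to 11.81 and CD3E over 8.82 to 10.54. In bulk samples, fewer cells of a type and less RNA per cell cannot be told apart. The aspirates of dogs 12 and 42 had the lowest mean correlation with the other arrays (0.941 and 0.952). The static DLBCL node of dog 41 and the aspirate of dog 12 had the highest 3' minus 5' difference of the actin and GAPDH controls, which grows as RNA degrades (3.23 and 2.28).

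In DLBCL nodes HSP90B1, PDIA4, DNAJB11 and CREB3L2 had the narrowest spans of the 10 genes. HSP90B1, the ER form of HSP90, lay between 12.50 and 13.31 in the 32 DLBCL nodes with a median of 12.92, so the highest dog had 1.75 times the lowest. PDIA4, a protein disulfide isomerase, also differed 1.75-fold between its highest and lowest DLBCL node. DNAJB11, which hands unfolded chains to the chaperone HSPA5, differed 1.48-fold, and its SD of 0.13 stood at the 11.0th percentile of all genes. CREB3L2, a transcription factor held in the ER membrane until it is cleaved, differed 1.42-fold, with an SD at the 4.98th percentile. Its level was the lowest of the 10 genes, with a median of 6.49 in DLBCL nodes, below the array medians of 7.08 to 7.20. The part of this low signal in its narrow span was not tested. In aspirates DNAJB11 spanned more, at 2.23-fold, while the spans of the other 3 there were 1.97-fold for HSP90B1, 1.52-fold for PDIA4 and 1.76-fold for CREB3L2.

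HERPUD1, SEC11C and FKBP11 had the widest spans in DLBCL nodes. HERPUD1, a membrane protein of the degradation complex that ER stress induces, ran from 11.72 to 13.98 with a median of 12.71 in DLBCL nodes, a 4.81-fold span with an SD at the 88.8th percentile. SEC11C, a catalytic subunit of the signal peptidase, spanned 4.76-fold (11.36 to 13.61, median 12.68), and FKBP11, a prolyl isomerase of the ER, spanned 4.17-fold (9.66 to 11.72, median 10.93). Between these and the narrowest 4 lay DERL3, a derlin of the degradation channel (2.88-fold), SSR4, a subunit of the complex beside the import channel (2.73-fold), and SEL1L, the adaptor of the HRD1 ubiquitin ligase (2.27-fold). In aspirates the widest span was that of DERL3, at 3.76-fold, and the narrowest was that of PDIA4, at 1.52-fold. The second probe sets of HSP90B1, HERPUD1 and SEC11C followed those used here at r = 0.92, 0.93 and 0.70 over the 58 arrays. The others did so at 0.20 and 0.72 for PDIA4 and at 0.60 and 0.90 for SEL1L.

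**Figure D1:**
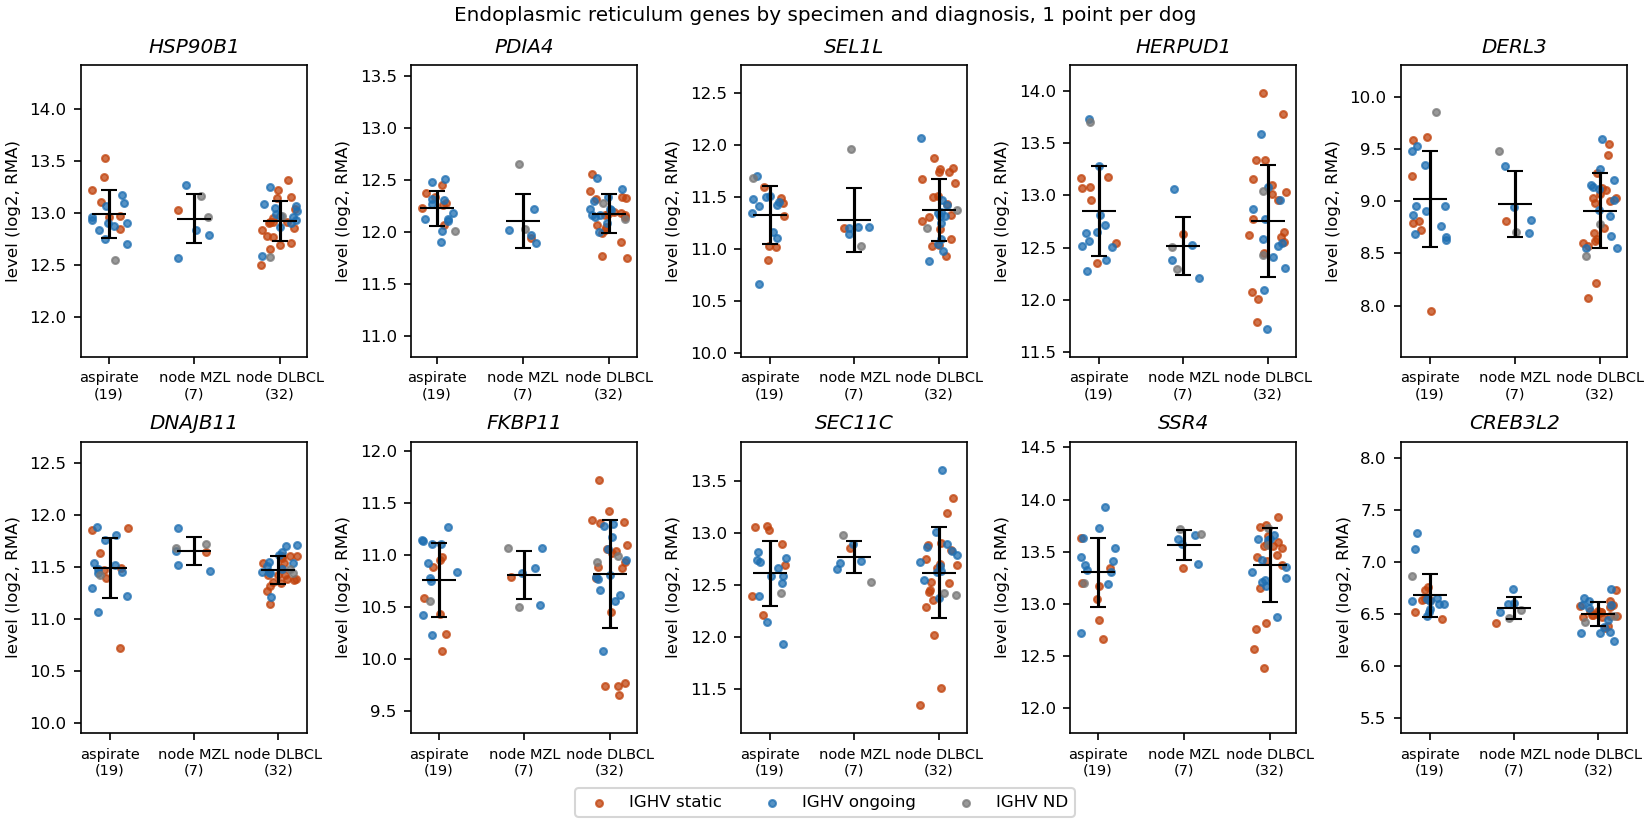
Level (log2, RMA) of each gene by specimen and diagnosis, with 1 point per dog coloured by IGHV status; the long line is the mean and the bars are the SD, with the number of dogs below each group. Groups overlap for all 10 genes, and the CREB3L2 panel shows 2 aspirates above 7.

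Static and ongoing tumours were compared first, since B cells mutate their antibody genes while they pass through a germinal centre. None of the 10 genes passed the threshold (limma with Benjamini-Hochberg adjustment over all genes, adjusted p under 0.05, status with a stratum for specimen and diagnosis, 53 dogs), and neither did any gene at all (0% of 15115). At an unadjusted p under 0.05 the count was 0 of 10, against 7.13% of all genes. HERPUD1 had the largest difference. Its level ran from 11.78 to 13.98 (median 12.96) in static tumours, against 11.72 to 13.73 (median 12.57) in ongoing tumours, and the groups overlapped almost entirely. The fitted difference was 0.20 ± 0.13 (SE, log2; adjusted p = 0.761), with a 95% interval of -0.07 to 0.47.

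The other genes of the 10 differed by less. FKBP11 stood at -0.13 ± 0.13, SSR4 at -0.13 ± 0.095, DERL3 at -0.09 ± 0.11 and SEC11C at -0.07 ± 0.11 (static minus ongoing, SE, log2). DNAJB11, PDIA4 and CREB3L2 stood at -0.05 ± 0.060, -0.03 ± 0.051 and -0.02 ± 0.046, while SEL1L and HSP90B1 stood at 0.05 ± 0.079 and 0.04 ± 0.059. In all, 3 of 10 estimates were above 0, against 47.2% of all genes, with a median of -0.04, beside a median of -0.0047 over all genes. The 95% interval of HSP90B1 ran from -0.07 to 0.16, and that of PDIA4 from -0.14 to 0.07. HSPA5, the main ER chaperone, stood at 0.03 ± 0.068 and XBP1 at -0.10 ± 0.091. JCHAIN, the joining chain of secreted antibody, averaged 11.54 ± 1.35 (SD, n = 26) in static tumours and 12.15 ± 1.14 (n = 27) in ongoing tumours, a fitted difference of -0.66 ± 0.35 (SE, adjusted p = 0.719).

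The IGHV difference was then compared between aspirates and nodes. No member passed (0.0132% of all genes did, which were ATF7IP2 and CLK3), and 2 of 10 had an unadjusted p under 0.05, against 9.1% of all genes. Of the 10 interaction estimates 5 were above 0, against 48.4% of all genes. For HSP90B1 the levels in aspirates ran from 12.84 to 13.53 (median 13.11) in static dogs, against 12.70 to 13.17 (median 12.90) in ongoing dogs. In nodes they ran from 12.50 to 13.31 (median 12.91) in static dogs, against 12.57 to 13.27 (median 12.96) in ongoing dogs. The static minus ongoing difference was 0.21 ± 0.094 in aspirates and -0.05 ± 0.072 in nodes, and the difference between these had an adjusted p of 0.524 by limma. Cell cycle genes lay along the same split, with a mean level of the list of 11.02 ± 0.21 in static aspirates, against 10.28 ± 0.49 in ongoing aspirates (SD, n = 7 and 11), and 9 of 9 interaction estimates above 0, none of which passed. The 3' minus 5' difference was 0.591 ± 0.192 in static aspirates, against 0.971 ± 0.477 in ongoing aspirates. The part of either in the HSP90B1 values was not tested. For SEC11C the static minus ongoing differences were 0.23 ± 0.14 in aspirates and -0.24 ± 0.14 in nodes (adjusted p = 0.544). JCHAIN ran the same way, at 0.36 ± 0.54 in aspirates and -1.21 ± 0.42 in nodes (adjusted p = 0.520).

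**Figure D2:**
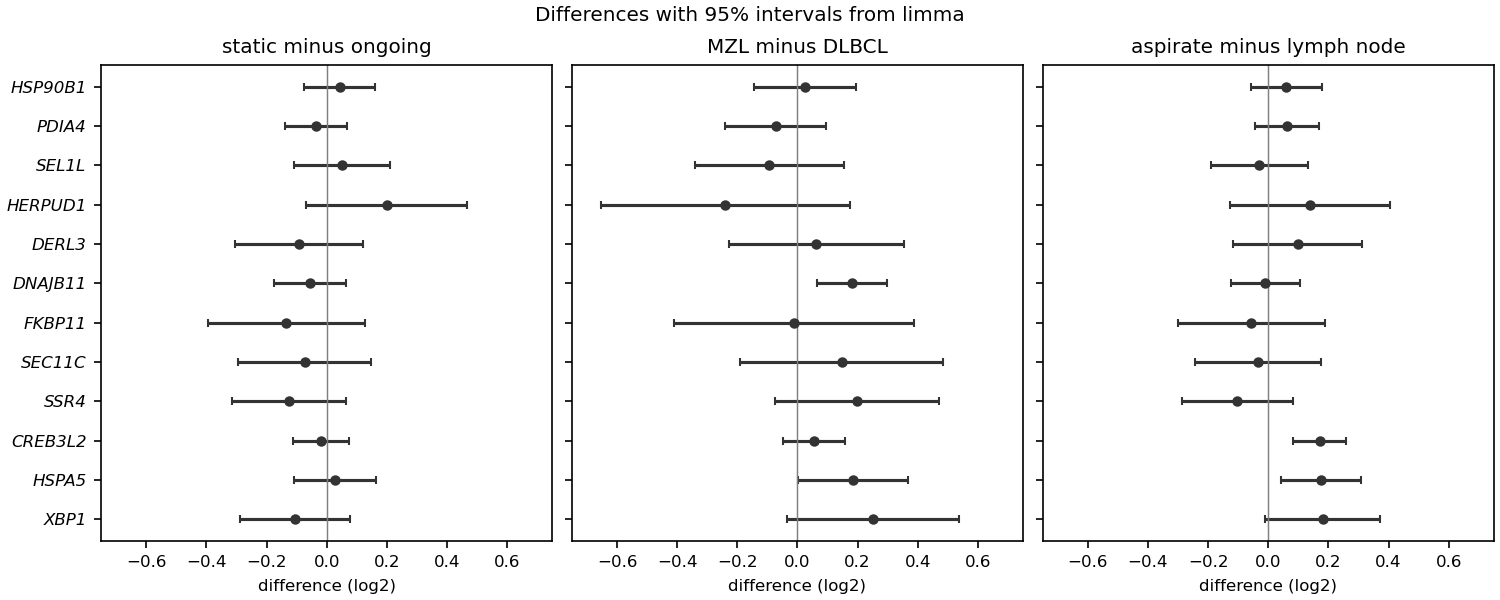
Fitted difference (log2) of each gene, with HSPA5 and XBP1 added, for static minus ongoing, MZL minus DLBCL and aspirate minus lymph node; points are limma estimates and bars are 95% intervals. Most intervals cross 0. Those of DNAJB11 and HSPA5 in the MZL panel and of CREB3L2 and HSPA5 in the aspirate panel do not, and none of these passed after adjustment over all genes.

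MZL nodes were set against DLBCL nodes to compare the diagnoses. No member passed, nor did any gene (0% of 15115), and at an unadjusted p under 0.05 the count was 1 of 10, against 1.16% of all genes. That gene was DNAJB11. Its level ran from 11.46 to 11.87 (median 11.65) in MZL nodes, against 11.15 to 11.71 (median 11.47) in DLBCL nodes, and the ranges overlapped. The means were 11.65 ± 0.13 (SD, n = 7) in MZL and 11.47 ± 0.13 (SD, n = 32) in DLBCL, a difference of 0.18 ± 0.058 (SE, log2), or 1.13-fold, ranked 5 of 15115 genes by p with an adjusted p of 1.00 by limma. The exact permutation p over 15380900 assignments was 0.00234, two-sided, without adjustment for the other members. This difference was already known when the 10 genes were chosen, so it lends no separate support.

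The partner of DNAJB11, HSPA5, averaged 13.15 ± 0.15 (SD, n = 7) in MZL nodes and 12.96 ± 0.23 (n = 32) in DLBCL nodes, a difference of 0.18 ± 0.090 (SE, adjusted p = 1.00 by limma). XBP1 stood at 0.25 ± 0.14 and JCHAIN at 0.02 ± 0.52. Of the remaining members, SSR4 and SEC11C stood at 0.20 ± 0.14 and 0.15 ± 0.17, HERPUD1 at -0.24 ± 0.20, SEL1L at -0.09 ± 0.12 and PDIA4 at -0.07 ± 0.083 (MZL minus DLBCL). DERL3, CREB3L2, HSP90B1 and FKBP11 lay between -0.01 and 0.06. Of 10 estimates 6 were above 0, against 46.1% of all genes. The static share was not the same in the groups (1 of 7 MZL dogs, against 18 of 32 DLBCL dogs), and its part in these values was not tested beyond the fit with IGHV status as a covariate.

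Aspirates were set against lymph nodes to see how the way of sampling bears on the genes; diagnosis is unknown in every aspirate, so the kind of tumour cannot be told apart from the specimen. No member passed, against 0.119% of all genes, and 1 of 10 had an unadjusted p under 0.05, against 11.8% of all genes. CREB3L2 ran from 6.45 to 7.27 (median 6.63) in aspirates, against 6.24 to 6.74 (median 6.51) in nodes. Dogs 12 and 1 had the highest levels, 7.27 and 7.12, and most aspirates lay within the range of the nodes. The means were 6.68 ± 0.21 (SD, n = 19) in aspirates and 6.51 ± 0.12 (SD, n = 39) in nodes, a difference of 0.17 ± 0.043 (SE, log2), or 1.13-fold, with an adjusted p of 0.0663. The adjusted p was 0.0385 after a second quantile normalization and 0.0471 with the most variable probe set of each gene. CREB3L2 has only 1 probe set, so in that second alternative its own values stayed the same and only other genes changed. Its adjusted p was 0.131 without the 2 arrays of lowest mean correlation and 0.154 without the 2 of highest 3' minus 5' difference, sets which both hold dog 12. Over the 10 alternatives, by limma or rank-sum test, the adjusted p ran from 0.0385 to 0.282.

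Other measures differed with specimen. All 11 T-cell markers had estimates above 0, with a median over the list of 0.26, and none passed (lowest adjusted p = 0.0904 by limma). At an unadjusted p under 0.05 by limma the count was 7 of 11, against 11.8% of all genes. The mean level of the list ran from 7.72 to 9.57 in aspirates, against 7.49 to 9.33 in nodes. Of 7 endothelial markers 6 had estimates above 0 and none passed, with a median over the list of 0.13 and 4 at an unadjusted p under 0.05. The red cell gene ALAS2, which makes heme, was higher in aspirates by 0.61 ± 0.12 (SE, adjusted p = 0.0133). The 4 red cell markers measured did not move together, with 2 estimates above 0, 2 below and a median over the list of -0.02. Their part in the CREB3L2 difference was not tested. Within aspirates CREB3L2 rose with the 3' minus 5' difference (r = 0.77, permutation p = 0.00126, adjusted p = 0.0154 over 40 relations, n = 19). By rank rho was 0.50 (adjusted p = 0.200). Without the 2 aspirates farthest from the median of CREB3L2 r was 0.26. Leaving out the dogs of most extreme CREB3L2 also narrows its range, which by itself lowers r. How far the relation rested on those dogs therefore cannot be told. HSPA5 stood at 0.17 ± 0.066 and XBP1 at 0.18 ± 0.096 (aspirate minus node), while the other 9 members lay between -0.10 and 0.14. Of 10 estimates 5 were above 0, against 46.9% of all genes.

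Survival was set against each gene by Cox score tests with aspirates and nodes as strata. No member passed for PFS (0% of all genes) or for OS (0.00662% of all genes, which was DDX43). At an unadjusted p under 0.05 the count was 0 of 10 for PFS, against 2.83% of all genes, and 1 of 10 for OS, against 3.99%. That member was SEL1L, whose hazard ratio for death was 3.80 per log2 unit (95% interval 1.19 to 12.1, unadjusted p = 0.0233, adjusted p = 1.00, 56 dogs), or 1.47 per SD. For PFS the hazard ratio of SEL1L was 1.94 per log2 unit (0.679 to 5.54, 55 dogs). Within specimens the OS hazard ratio was 5.01 in aspirates (0.444 to 56.6) and 3.48 in nodes (0.906 to 13.4), so neither interval lay wholly above 1. The other 2 probe sets of SEL1L gave OS coefficients of 1.55 (unadjusted p = 0.00713) and 0.99 (unadjusted p = 0.0205) per log2 unit, beside 1.34 for the probe set used. They read the same RNA, so they are no separate evidence, and none passed after adjustment.

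The other degradation genes had hazard ratios above 1 as well, with intervals that included 1: DERL3 at 1.90 for OS and 1.71 for PFS, and HERPUD1 at 1.48 for OS and 1.28 for PFS per log2 unit. DNAJB11 had the lowest, at 0.739 for OS and 0.612 for PFS. In DLBCL nodes alone its PFS hazard ratio was 0.0631 (0.00426 to 0.935, unadjusted p = 0.0425, 30 dogs), and in aspirates it was 0.962 (0.165 to 5.60, 19 dogs). Since DNAJB11 spanned only 1.48-fold in DLBCL nodes, a full log2 unit lies outside the measured range there. Of 10 members, 8 had an OS hazard ratio above 1, against 46.8% of all genes, and 8 a PFS hazard ratio above 1, against 50.4%.

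**Figure D3:**
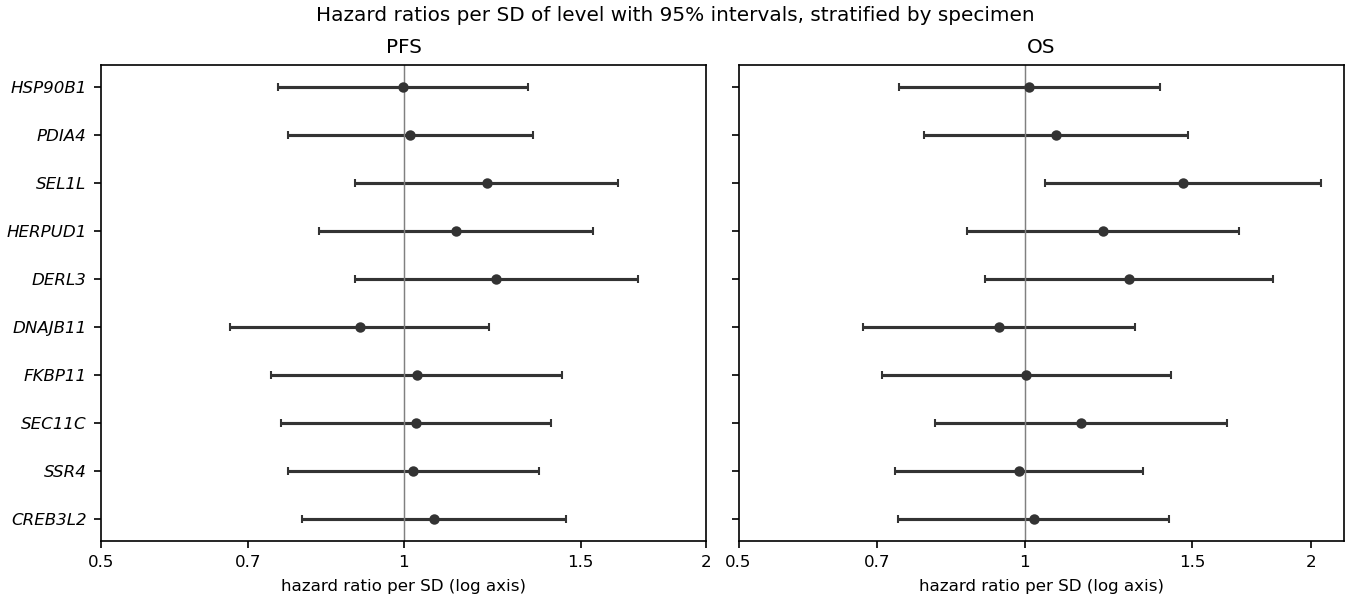
Hazard ratio per SD of level for PFS and OS on a log axis, from Cox models stratified by specimen; points are estimates and bars are 95% intervals. Intervals include 1 for all 10 genes in PFS and for all but SEL1L (1.05 to 2.05) in OS.

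Whether the 10 genes moved together from dog to dog was asked within DLBCL nodes and, apart, within aspirates. Few pairs were correlated. In DLBCL nodes the 45 pairs had a median Pearson r of 0.05 (-0.50 to 0.71), beside 0.0235 for all pairs of genes, and 25 of 45 were above 0. In aspirates the median was 0.12 (-0.42 to 0.63), beside 0.019 for all pairs, and 29 of 45 were above 0. Of 90 relations, 2 passed after adjustment, both in DLBCL nodes.

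FKBP11 and SSR4 correlated at r = 0.71 in DLBCL nodes (rho = 0.54, n = 32, permutation p = 1e-05, the smallest 100000 permutations can give, adjusted p = 0.0009). The plot of the pair shows 4 static DLBCL nodes apart from the rest. Dogs 6, 7, 10 and 14 had FKBP11 levels of 9.74, 9.74, 9.66 and 9.77, against 10.08 to 11.72 in the other 28 nodes, and SSR4 levels of 12.56, 12.39, 12.75 and 12.81, against 12.87 to 13.83. Without these 4 nodes, an alternative chosen after seeing the data, r was 0.19 (rho = 0.31, permutation p = 0.322, n = 28). With only the 2 nodes farthest from the median of FKBP11 left out, r was 0.59. Leaving out the 4 nodes of lowest FKBP11 also narrows the range of that gene, which by itself lowers r. How far the relation rested on these dogs therefore cannot be told from this alternative. The arrays of the 4 nodes had a mean correlation with the others of 0.955 to 0.967, against 0.960 to 0.977 in the other nodes, and the part of array quality was not tested. In aspirates, where no such cluster was seen, r was 0.63 (rho = 0.65, 0.62 without the 2 dogs farthest from the median, adjusted p = 0.0772, n = 19). By r with FKBP11, SSR4 ranked 52 among all genes in DLBCL nodes and 202 in aspirates, so many other genes followed FKBP11 more closely.

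DERL3 and SEC11C correlated at r = 0.65 in DLBCL nodes (rho = 0.37, permutation p = 5e-05, adjusted p = 0.00225, n = 32). Dogs 14 and 6, from the same cluster, had the lowest levels of both genes, 8.08 and 8.22 for DERL3 and 11.36 and 11.52 for SEC11C. Dog 7 of that cluster had high levels, 9.55 and 13.34, near the highest of the other 28 nodes (9.60 and 13.61). Leaving out the 4 nodes thus took away dogs at both ends. Without the 4 nodes r was 0.41 (rho = 0.18, permutation p = 0.0317, n = 28), and none of the 90 relations then passed after adjustment. With Spearman's rho in place of r none passed either. In aspirates r was 0.29 (adjusted p = 0.566). By r with DERL3, SEC11C ranked 62 among all genes in DLBCL nodes and 2114 in aspirates.

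The chaperone HSP90B1 followed HSPA5, its neighbour in the ER lumen, in both specimens. In DLBCL nodes r was 0.63 (rho = 0.56, 0.50 without the 2 dogs farthest from the median, adjusted p = 0.003 over 60 relations, n = 32), and without the 4 nodes it was 0.60 (n = 28). In aspirates r was 0.77 (rho = 0.76, 0.68 without the 2 farthest dogs, adjusted p = 0.003, n = 19), and by r with HSP90B1 HSPA5 ranked 3 among all genes there and 41 in DLBCL nodes. SSR4 ran against HSPA5 in DLBCL nodes, at r = -0.54 (rho = -0.53, -0.54 without the 2 farthest dogs, adjusted p = 0.0224 for r and 0.0514 for rho), and at -0.45 without the 4 nodes. In aspirates that r was -0.19 (adjusted p = 0.677). SSR4 also correlated with the mean correlation of the array, at r = 0.58 in DLBCL nodes (adjusted p = 0.0154 over 40 relations) with a rho of 0.33 (adjusted p = 0.213) and an r of 0.40 without the 2 farthest dogs. In aspirates it did so at r = 0.68 (rho = 0.71, adjusted p = 0.0154 for r), and at 0.35 without the 2 farthest dogs. The part of array quality in the relation with HSPA5 was not tested.

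**Figure D4:**
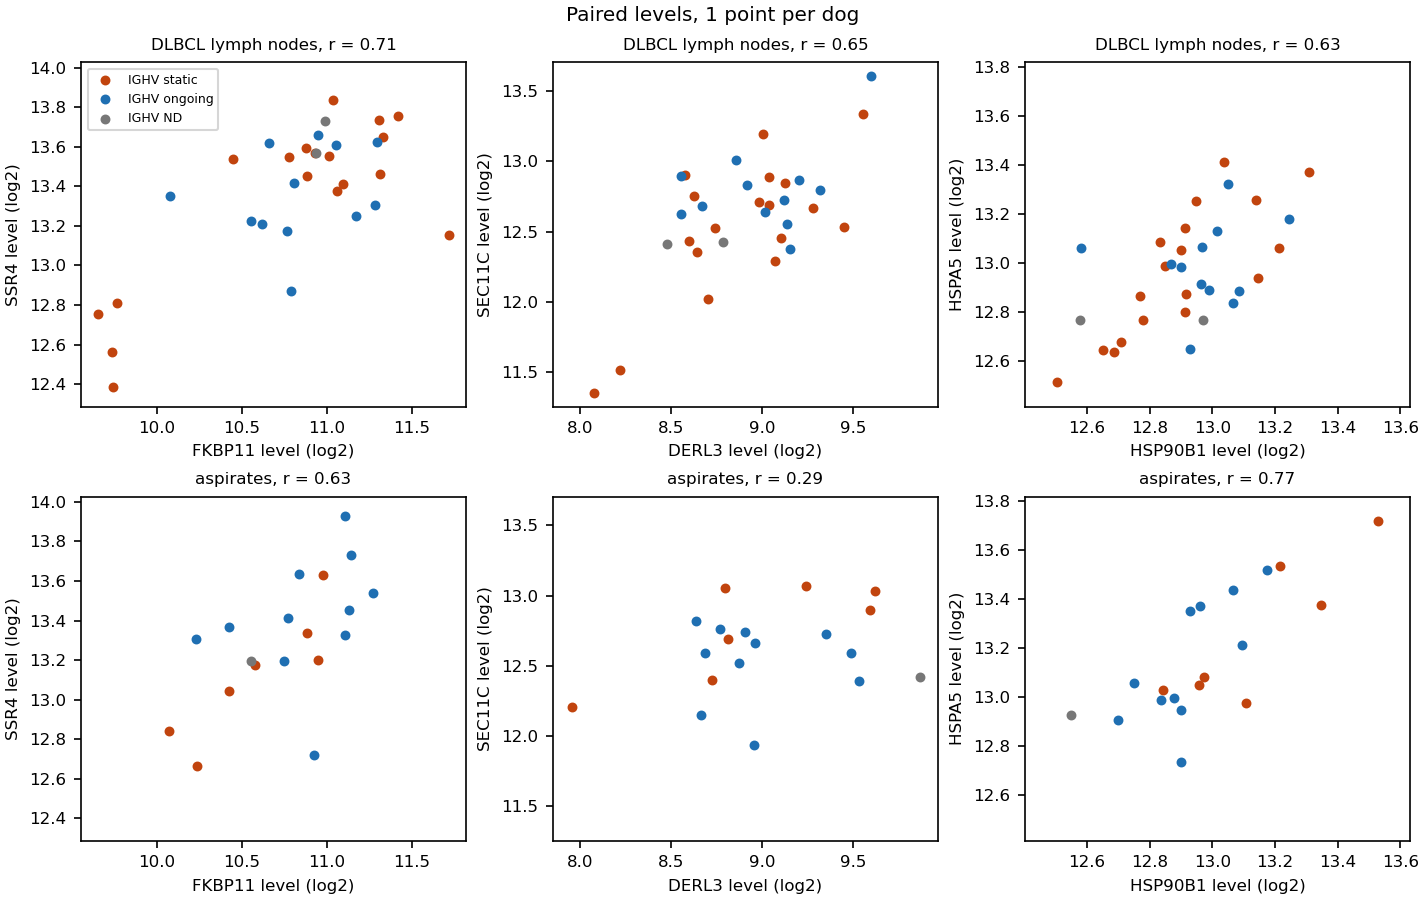
Level (log2) of 3 pairs of genes, with 1 point per dog coloured by IGHV status, in DLBCL nodes above and aspirates below. The FKBP11 and SSR4 panel for nodes shows 4 static dogs at low levels of both, and HSP90B1 and HSPA5 rise together in both rows.

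DERL3 and the plasma cell gene JCHAIN correlated at r = 0.66 in aspirates (rho = 0.58, n = 19). The adjusted p over 60 relations was 0.0294 for r and 0.159 for rho. This r was 0.43 without the 2 farthest dogs, and in DLBCL nodes r was 0.12. DNAJB11 rose in aspirates with the mean level of 25 ER chaperones and disulfide enzymes (r = 0.78, rho = 0.79, adjusted p = 0.0168 over 280 relations) and with that of 24 translocon, signal peptidase and glycosylation genes (r = 0.85, rho = 0.83, adjusted p = 0.0028). Without the 2 farthest dogs these were 0.80 and 0.78. DNAJB11 also followed the mean correlation of the array in aspirates (r = 0.66, 0.27 without the 2 farthest dogs), whose part was not tested.

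**Figure D5:**
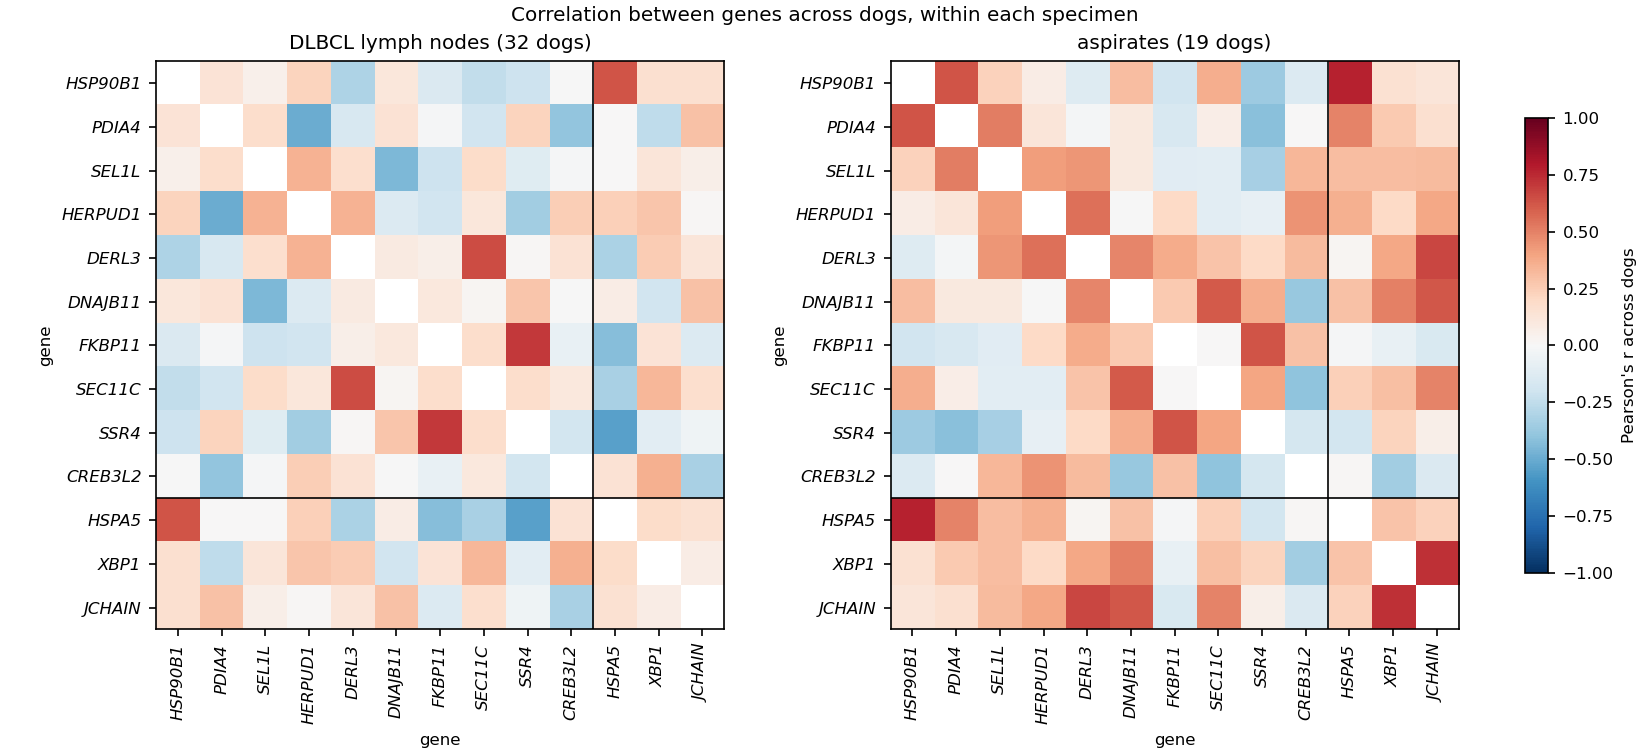
Pearson's r across dogs between the 10 genes, HSPA5, XBP1 and JCHAIN, in DLBCL nodes (n = 32) and in aspirates (n = 19); red is positive, blue is negative, and lines set off the 3 added genes. Strong cells are few, and HSP90B1 with HSPA5 is red in both panels.

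The wider pathway was read from gene lists that were likewise drawn up with earlier results known. For IGHV status, 0 genes passed among 18 ER stress sensors and factors, 25 chaperones and disulfide enzymes, 18 degradation genes, 24 translocon, signal peptidase and glycosylation genes and 22 ER-Golgi transport genes. Their median differences (static minus ongoing) were -0.01, -0.02, 0.01, -0.02 and 0.08. For MZL minus DLBCL, 21 of 25 chaperones and disulfide enzymes had estimates above 0, with a median over the list of 0.10. Of the translocon list 19 of 24 did, with a median over the list of 0.07, beside -0.0070 over all genes, and none passed. The counts above 0 were 11 of 18 stress sensors, 9 of 18 degradation genes and 14 of 22 transport genes, against 46.1% of all genes. Stroma markers (8 of 8, median 0.17) and T-cell markers (9 of 11, median 0.19) also lay above 0 with none passing, and their part was not tested. For aspirate minus lymph node the medians of these 5 lists lay between -0.03 and 0.02, and none of their genes passed. For OS, 20 of 22 transport genes had a positive coefficient, with a median over the list of 0.32 per log2 unit, beside -0.04 over all genes, and none passed. Positive coefficients were also held by 15 of 18 degradation genes, 16 of 24 translocon genes, 15 of 25 chaperones and 11 of 18 stress sensors, against 46.8% of all genes. Cell cycle genes (9 of 9, median 0.43) and stroma markers (7 of 8, median 0.36) had positive coefficients too, none of which passed, and their part was not tested.

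The genes most like the mean of the 10 (z-scored) over the 32 DLBCL nodes were THYN1 (r = 0.73), PSMA2 (0.72), PSMB5 (0.70), EXOSC1 (0.70), TIMP1 (0.70), MRPL20 (0.70), CYB5B (0.69), LSM3 (0.69), MAGOH (0.68) and PSMA6 (0.68). These were picked as the highest of all genes, whose 99th percentile was 0.57. In aspirates the same genes had r from 0.04 (PSMA6) to 0.54 (TIMP1). The members, though part of the mean, followed it in DLBCL nodes at only 0.12 (PDIA4) to 0.57 (SEC11C), and in aspirates at 0.26 (SSR4) to 0.75 (DERL3). In DLBCL nodes every gene named above thus lay closer to the mean than any member, so this mean stands poorly for the 10 genes.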

How the data were processed

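RNA from the tumours was amplified and read on Affymetrix canine arrays, as the labels' protocols say. The deposited log2 values, 43035 probe sets on each of 58 arrays, were made by the authors with RMA in Affymetrix Expression Console, per the submitters' processing notes; versions are not given in the sources used here. Values ran from 2.82 to 15.11 with 0 missing. GEO's platform annotation gave 1 symbol to 29254 probe sets, several to 439 and no symbol to 13231, beside 111 controls. The probe set with the highest mean stood for each of 15115 genes.

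Differences came from limma 3.58.1 (lmFit, eBayes, two-sided) under R 4.3.3. Specimen and diagnosis entered the IGHV model as 3 strata, the diagnosis model 39 nodes and the specimen model 58 arrays. Outcome used Cox score tests with Breslow ties, with hazard ratios by survival 3.8.3, and indicator 1 was taken for an event. Correlations used 100000 permutations in Python 3.11.15 with numpy 2.4.6, and figures matplotlib 3.10.9. Benjamini-Hochberg adjustment ran over all genes, or over the relations named, at 0.05. Scripts were tested on simulated data. Each array came from a different dog, and the closest pair of arrays correlated at 0.990.

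The members and lists were chosen with earlier results of these data known. All members were named in every comparison, with HSPA5, XBP1, JCHAIN, up to 3 genes past the threshold per list and comparison, and the 10 genes most like the members' mean. Comparisons with at most 5 genes past the threshold have these named, chosen after their values were seen. Alternatives changed the probe set, low-level filter, arrays, normalization, test, covariates or samples.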

Additional observations from a re-analysis of the deposited data

Results flagged for a closer look

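Each member was searched for a dog far from the rest in groups of 4 to 10 dogs, 40 searches in all over the MZL nodes, the static aspirates, the ongoing MZL nodes and the ND dogs; 6 were found, where chance flags about 1 in 20. These groups overlap, since dog 24 is an MZL node with ND status.

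In MZL nodes dog 24 had a PDIA4 level of 12.65, against 11.90 to 12.22 in the other 6, and a SEL1L level of 11.96, against 11.03 to 11.21. Among the ND dogs the same dog had a SEC11C level of 12.99, against 12.41 to 12.53. Dog 52 had a CREB3L2 level of 6.86 among the ND dogs, against 6.42 to 6.54. Among static aspirates dog 42, whose array had a low mean correlation with the rest, had a DNAJB11 level of 10.73, against 11.39 to 11.87. Among the 4 ongoing MZL nodes dog 45 had a SEL1L level of 11.15, and the others all lay at 11.21.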

How the results depend on the processing

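Values of single members were allowed to move by the SD of the gene over all 58 arrays or, for survival, by the SE of the coefficient. Of 692 values under an alternative, 670 stayed within that bound and on their side of the threshold. Another 20 moved by more and 2 (CREB3L2 in aspirates) came to pass. In all, 59 changed sign, all of them values that never passed. The bound is wide: SEC11C counted as unchanged at -0.07 for IGHV status in all dogs and 0.23 in aspirates. The exact permutation values keep the main difference, so they could only count as unchanged. No gene passed for MZL against DLBCL under any alternative run, including the fits without each MZL dog in turn (0 to 0 genes). For IGHV status 6 genes passed in aspirates only. For the interaction 1 gene passed without the low-correlation arrays, 1 without the arrays of high 3' minus 5' difference and 1 after a second quantile normalization, against 2 in the main setting. For aspirate against node the 18 genes became 58 with the mean of probe sets, 107 with the most variable probe set, 10 and 10 without those 2 pairs of arrays, 37 after quantile normalization, 6 against DLBCL nodes only, 5 with IGHV status as a covariate and 0 by the rank-sum test. For PFS 1 gene passed with the mean of probe sets and 1 in nodes only. For OS the 1 gene became 2 with the mean of probe sets, 2 with the most variable probe set, 0 among genes with a mean of at least 5, 0 without strata, 3 in nodes only, 2 in DLBCL nodes only, 0 in aspirates only and 0 with IGHV strata. The 2 member pairs of 90 tests became 3 of 90 with the mean of probe sets, 4 of 45 tests over all 58 arrays centred by stratum, 0 by Spearman's rho and 0 without the 4 nodes of low FKBP11; the last 2 settings were chosen after seeing the data. The causes were not tested. No paired analysis was possible because each dog gave 1 array. With 7 MZL dogs only large differences could pass.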

Other observations

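The 4 static DLBCL nodes with low FKBP11 and SSR4 did not share the levels of other members. HERPUD1 ran from 12.62 to 13.98 in them, against 11.72 to 13.78 in the other 28 nodes, and SEC11C from 11.36 to 13.34, against 12.02 to 13.61. The mean level of the cell cycle list ran from 10.79 to 11.72 in them, against 10.08 to 11.28, and that of the stroma list from 6.18 to 6.32, against 6.13 to 8.40. These dogs were picked for their levels, so no test was made.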
